A study of Caenorhabditis elegans with 16 samples.

Results

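After 48 h in auxin, 310 genes were higher and 415 lower in dissected germline tumors of Caenorhabditis elegans than in control tumors, out of 7604 genes tested. The comparison covers 8 of the 16 libraries of the series, 4 per group, and the genes with a deposited value of 1 CPM (reads per library, scaled to a common total) or more in at least 2 of the 8, out of 46536 gene IDs listed. Control animals had 0 h of auxin and the other group had 1 mM auxin for 48 h. Both groups were Bristol-strain adults of 1 day, grown from synchronised larvae for 48 h at 25 °C, and both carried the mutations gld-2(q497) and gld-1(q485), the receptor allele glp-1(ar202), the changed gene lag-1(oz536oz537), and ieSi64, a gld-1 promoter transgene for TIR1 with mRuby. What was changed in lag-1 is not described, no group had auxin without that change, and LAG-1 protein was not measured. The stated growth is as long as the auxin exposure, so how long and how early auxin acted cannot be told apart. TIR1, the plant auxin receptor that sends degron-tagged proteins for breakdown, was driven by a germline promoter.

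In the C. elegans gonad, cells of the somatic niche signal through GLP-1, a Notch receptor of germ cells. The cleaved receptor works in the nucleus with LAG-1, the DNA-binding factor of the pathway, to switch on a small set of target genes that keep germ cells in the mitotic stem cell state. GLD-1 and GLD-2 promote entry into meiosis, so germ cells that lack both and carry an overactive receptor keep dividing and form a tumor.

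Whole reads could be recovered from the deposited values, with 29063281 to 32673741 reads in the controls and 17737570 to 28385867 at 48 h. Every control was thus deeper than every 48 h library (exact permutation p = 0.0286, 2-sided, the smallest that 4 against 4 allows). Ribosomal RNA genes took 53.3%, 34.0%, 51.7% and 34.0% of reads in control 1 to 4 and 44.9%, 35.0%, 32.3% and 33.1% in 48 h 1 to 4. Control 1, control 3 and 48 h 1 thus stood apart, and in the same 3 libraries long genes had lower values relative to short genes than in the other 5. The germline markers pgl-1 and glh-1 were abundant in every library, at 594 to 1191 and 307 to 599 deposited CPM. The sperm genes msp-3, msp-10 and gsp-3 were listed at 0 in all 8 libraries, and 44 of 94 listed sperm genes were at 0 throughout. Yolk genes of the intestine were low but present, with vit-6 between 0.788 and 12.9 CPM and highest in control 2 and 48 h 3.

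**Figure D1:**
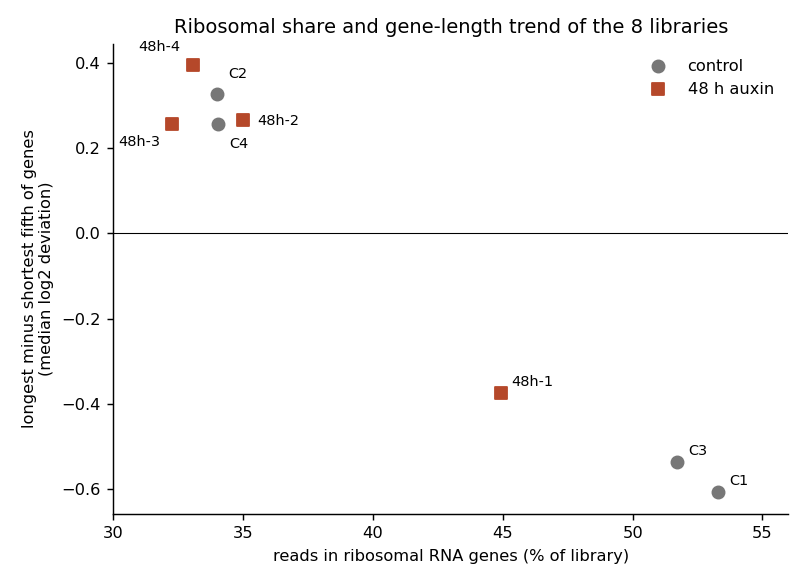
Each point is 1 library: the horizontal axis is the share of its reads in ribosomal RNA genes (%), the vertical axis the median log2 deviation of the longest 20% of protein-coding genes minus that of the shortest 20%. Circles are the 4 controls and squares the 4 libraries of 48 h auxin; control 1, control 3 and 48 h 1 lie apart at 44.9% or more ribosomal reads and negative trends, while the other 5 lie between 32.3% and 35.0% with positive trends.

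Because ribosomal reads are part of the deposited total, each library was rescaled by TMM factors, and limma was run on log2(rescaled CPM + 1). All differences below are on that scale, 48 h minus control, and understate the change of low genes. A gene is said to have risen or fallen at a Benjamini-Hochberg adjusted p under 0.05 over the 7604 genes. The 310 rises were 4.08% of the genes tested and the 415 falls 5.46%. Among all genes tested, the 4 libraries of one group lay wholly above those of the other for 8.65% (higher at 48 h) and 8.9% (lower at 48 h). Groups were separate in this way for 717 of the 725 called genes, so a lack of overlap adds little to a call. On the deposited values without rescaling the split turned to 372 higher and 173 lower, and the median difference of all genes was 0.24 in place of 0.00. A stricter call required the same sign and an adjusted p under 0.05 on 3 scales (rescaled, as deposited, and rescaled with each library's trend with gene length removed). It was met by 178 rises, 2.34% of genes, and 168 falls, 2.21%. Rises were mostly small: their median was 0.50, and 29 of them reached 1 (log2). Falls had a median of -0.71, and 81 reached -1. Falls, and less so rises, were concentrated among low genes, with 58.3% of falls and 39% of rises at a mean below 5 rescaled CPM. In that range 11.5% of 2110 genes fell and 5.73% rose, and at 5 or more 3.15% of 5494 fell and 3.44% rose. The part of the lower depth at 48 h in this was not tested. The filter counts all 8 libraries, so a gene below 1 deposited CPM throughout one group could be tested through the other group alone. Examples among those named below are the rises hil-3, his-1, his-2, his-3, nhr-10 and idhg-2 and the falls bath-18, clec-169, cwn-1 and Y69H2.10. The count of calls moved both ways when 1 library was left out. It was highest without 48 h 1, at 858, and was 442 without control 3, 392 without 48 h 2, 361 without 48 h 3 and 362 without 48 h 4. In the last 4 of these the 3-scale count dropped from 346 to 169, 133, 141 and 124. With control 1, control 3 and 48 h 1 left out, 2516 genes passed (1237 higher and 1279 lower), and 700 of the 725 calls were among them with the same sign. In bulk RNA, fewer cells of a type and less RNA per cell cannot be told apart.

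The Notch targets of the germline fell, and the pathway's own transcripts did not pass the test. Of 5 listed targets 3 fell and none rose, with a list median of -0.85 against -0.00 over all genes, on a list chosen because its members are known targets. lst-1, which keeps germ cells in the stem cell state together with sygl-1, measured 53.7, 81.9, 43.9 and 52.5 rescaled CPM in the controls and 14.3, 16.8, 15.9 and 15 at 48 h (difference -1.80, SE 0.17, adjusted p = 0.00049). sygl-1 went from 13, 27.3, 10.9 and 12.3 to 0.988, 2.35, 2.87 and 2.17 (-2.39, SE 0.30, adjusted p = 0.0017). Neither gene's groups overlapped, and control 2 was the highest library for both. lip-1, a phosphatase that holds germline MAPK activity down, fell from 3.31 ± 0.77 to 1.36 ± 0.16 (SD, n = 4; -0.85, SE 0.14), though not on the deposited scale. The other listed targets, fbf-2 (-0.12, adjusted p = 0.46) and utx-1 (-0.52, adjusted p = 0.13), did not pass. Both did with the 5 libraries that lie together (-0.24 and -0.96). All 5 targets fell there, where 16.8% of all genes passed as lower.

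None of 18 tested genes of the Notch pathway passed in limma; 2 had an unadjusted p under 0.05, edgeR called none and DESeq2 called 2. The lag-1 transcript was at 53.2 ± 13.3 in controls and 51.2 ± 5.0 at 48 h (-0.03, SE 0.17, adjusted p = 0.94). This bears on the RNA and not on LAG-1 protein, which was not measured. glp-1 was at 233 ± 55 and 252 ± 28 (0.14, SE 0.17, adjusted p = 0.65). The mutated meiotic regulators gld-1 (-0.03, SE 0.15) and gld-2 (0.14, SE 0.19) did not pass either. The groups overlapped for each of these 4 genes, and the sign of each difference turned under at least one other setting.

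A few genes of meiotic entry and early meiotic prophase were higher at 48 h, by small amounts. prom-1 encodes an F-box protein that promotes meiotic entry and homolog pairing. It measured 25.26, 25.44, 25.78 and 26.16 rescaled CPM in the controls and 46.2, 48.14, 49.4 and 47.9 at 48 h (0.87, SE 0.07, adjusted p = 0.00026), with little spread within either group. It was the only one of 16 meiotic entry regulators called (6.25%, against 4.08% of all genes). nos-1, a Nanos relative, rose from 19.5 ± 0.7 to 25.8 ± 0.6 (0.39, SE 0.07) as the only one of 13 PUF and Nanos genes called (7.69%). Both rose on 3 scales. With the 5 libraries that lie together, 1 of the 16 meiotic entry regulators passed as higher and 6 as lower. Of the 13 PUF and Nanos genes, 5 passed there as higher and 5 as lower. Among all genes 16.3% passed there as higher and 16.8% as lower. With the ribosomal share as covariate, each of these lists had 1 gene higher and 5 lower, against 13.3% and 16.1% of all genes.

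Among 49 genes of meiotic chromosome structure and recombination, 5 rose and none fell. These are 2 of 13 axis and synaptonemal complex genes, 1 of 9 pairing genes and 2 of 27 break and crossover genes. The shares are 15.4%, 11.1% and 7.41%, against 4.08% of all genes. htp-3, the axis protein that recruits the other HORMA-domain proteins, went from 108, 128.1, 112 and 138 to 144, 196, 184 and 206 (0.58, SE 0.13, adjusted p = 0.025). Its groups did not overlap, and 48 h 1 was the lowest of its group. The cohesin subunit coh-4 (0.30), the pairing centre protein zim-2 (0.31), the BLM helicase him-6 (0.56) and the break factor dsb-1 (0.37) also rose, each with no overlap between groups. None of these 5 passed on the deposited scale. The call of coh-4 and that of zim-2 were each ended by any of 7 single libraries left out. For htp-3 and for him-6 any of 5 single libraries did so, and for dsb-1 either of 2. The median of the 13 axis and synaptonemal complex genes was 0.17.

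Of 27 cyclin, CDK and cell cycle regulator genes, 4 rose and 1 fell, which is 14.8% and 3.70% against 4.08% and 5.46% of all genes. cki-2, a CDK inhibitor of the Cip/Kip family, measured 9.46, 11.21, 9.90 and 11.7 in the controls and 15, 17.5, 14.9 and 15.7 at 48 h (0.54, SE 0.10, adjusted p = 0.010). cdk-2, the partner of cyclin E in S-phase entry, rose from 13.6 ± 0.8 to 19.1 ± 0.5 (0.46, SE 0.08). Both were called on 3 scales. The mitotic cyclin gene cyb-1 (0.56) and cyh-1 (0.29) rose on the rescaled values, and the phosphatase gene cdc-25.1 fell from 192 ± 27 to 135 ± 13 (-0.49, SE 0.12). The call of cdc-25.1 was absent on the deposited scale and was ended by leaving out any single library other than control 1. Without control 3, 48 h 2, 48 h 3 or 48 h 4 the list had 2 rises. Of 43 genes for DNA replication and nucleotide supply, 1 fell and none rose, and none of 36 spindle and centrosome genes was called by limma or edgeR (5 at an unadjusted p under 0.05, 3 by DESeq2).

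**Figure D2:**
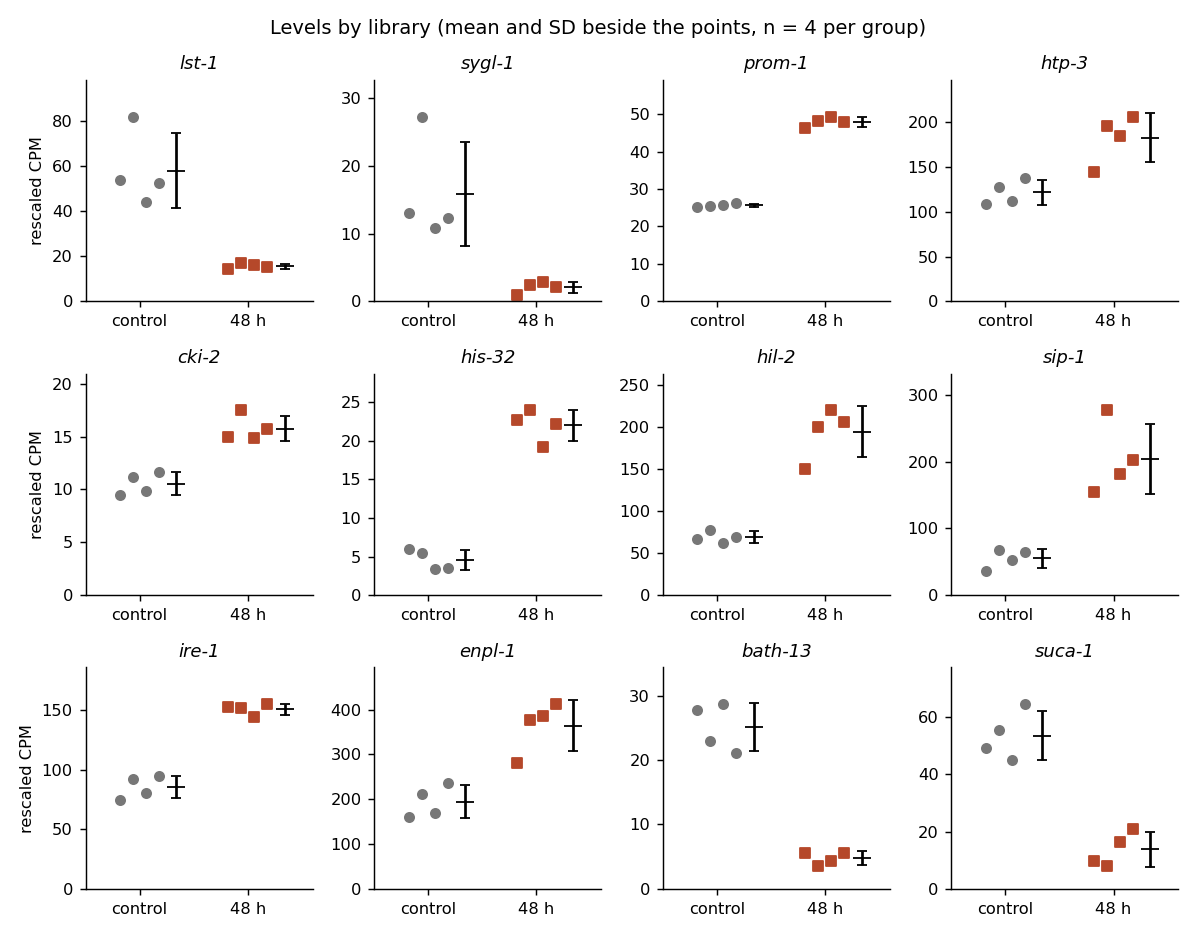
Rescaled CPM (vertical axis, from 0, 1 panel per gene) in each of the 4 controls (circles) and 4 libraries of 48 h auxin (squares), with the mean and SD of each group beside the points. In all 12 genes shown the groups do not overlap; lst-1, sygl-1, bath-13 and suca-1 are lower at 48 h and the other 8 are higher.

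Histone genes moved in both directions, by locus. Of 28 core and variant histone genes tested (of 76 listed), 7 rose and 6 fell, against 4.08% and 5.46% of all genes, and 6 rises and 2 falls held on 3 scales. The largest of the 12 largest rises was that of his-32, an H3 gene on chromosome IV, at 5.93, 5.49, 3.41 and 3.54 in the controls and 22.7, 23.9, 19.1 and 22.2 at 48 h (2.06, SE 0.17, adjusted p = 0.00027). Its neighbour his-31, an H4 gene, measured 3.06, 1.23, 1.53 and 0.979 and then 8.02, 6.09, 5.14 and 5.85 (1.47, SE 0.22). The groups did not overlap for either gene.

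A cluster of 4 neighbouring histone genes on chromosome V, at 16040144 to 16042831 of WBcel235, rose as a whole. It holds his-4 (H2B), his-3 (H2A), his-2 (H3) and his-1 (H4), 1 gene for each nucleosome core protein. his-3 went from 1.11, 0.910, 0.652 and 0.442 to 5.29, 4.93, 4.88 and 5.38 (1.80, SE 0.13, adjusted p = 0.00018), and his-4 from 0.866 ± 0.266 to 3.80 ± 0.49 (1.37, SE 0.13). his-1 had 5, 8, 6 and 8 reads in the controls and 31, 42, 60 and 45 at 48 h (1.08, SE 0.09). his-2 had 2, 6, 3 and 3 reads and then 19, 36, 24 and 34 (0.86, SE 0.10). These control counts are near the limit of 3 reads that a count of 0 allows, so the size of the rise of his-1 and his-2 is loosely set. On the deposited values his-1, his-2 and his-3 were below 1 CPM in every control, and his-4 reached it in control 2 only. All 4 thus needed their 48 h libraries to pass the filter. Their part in the 7 histone rises is therefore not independent of how genes were chosen for testing.

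Single genes at other histone loci fell. his-67 (H4) and his-68 (H2A), neighbours on chromosome I, fell by 0.73 and 0.74, with his-68 at 98.6 ± 9.3 in controls and 58.6 ± 3.7 at 48 h. his-59 (H3) and his-62 (H2B), on chromosome IV, fell by 0.44 and 0.40, and his-5 (H4) by 0.87. Their neighbours his-60, his-61 and his-6 were not called (adjusted p = 0.17, 0.24 and 0.35 in limma). The falls of his-59, his-62, his-67 and his-68 were not called on the deposited scale, and leaving out control 3, 48 h 2, 48 h 3 or 48 h 4 gave 1 histone fall in place of 6. Rises numbered 6 or 7 whichever single library was left out. Histone gene copies are nearly identical in sequence, and the sources used here do not say how reads matching several copies were counted, so the split between copies is uncertain. his-16 (H2A) rose by 0.33, but not on 3 scales, and his-69, an H3.3-like gene, fell by 0.70. The call of his-16 was ended by any of 7 single libraries left out and that of his-69 by any of 6.

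Linker histones, which bind the DNA between nucleosomes, had 2 of 5 members higher (40%, against 4.08% of all genes) and none lower. hil-2 (H1.2) measured 66.3, 77.9, 61.4 and 69.4 in controls and 150, 200, 220 and 206 at 48 h (1.47, SE 0.13, adjusted p = 0.00036), with no overlap and 48 h 1 the lowest of its group. The X-linked hil-3 (H1.3) rose from 0.353 ± 0.190 to 1.299 ± 0.378 (0.76, SE 0.14). The calls of hil-2 and hil-3 held on 3 scales and in every omission of 1 library. However, hil-3 was below 1 deposited CPM in every control and passed the filter through its 48 h libraries only. The share of 40% therefore counts a member that was tested because it was higher at 48 h.

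X-linked genes fell more often than autosomal genes. Of 352 X-linked genes tested, 54 fell and 9 rose (15.3% and 2.56%), against 361 falls and 300 rises among 7218 autosomal genes (5% and 4.16%). On 3 scales the X had 22 falls and 6 rises, 6.25% and 1.70%. X-linked genes are mostly low in the germline, where the chromosome is largely silenced, and 289 of the 352 had a mean below 5 rescaled CPM. Within that class 15.6% of X-linked and 10.9% of autosomal genes fell, and at 5 or more 9 of 63 X-linked genes (14.3%) fell against 3.03% of 5410 autosomal genes. The median difference of all 352 X-linked genes was -0.00. On the deposited values the X had 23 falls and 13 rises. Falls on the X numbered 33 without 48 h 3 and 36 without 48 h 2 or 48 h 4, and rises 3 without control 3 or any of these.

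The falling X-linked genes with the largest change include suca-1, which encodes a succinate-CoA ligase subunit. It measured 49.3, 55.5, 44.8 and 64.4 in the controls and 9.88, 7.88, 16.4 and 21 at 48 h (-1.96, SE 0.27, adjusted p = 0.0027). snrp-40.1, a U5 snRNP protein gene, went from 5.28, 6.93, 5.68 and 8.02 to 2.09, 1.09, 1.15 and 0.702 (-1.75, SE 0.19). The groups of both genes were far apart. gas-1, a complex I subunit gene, fell from 14 ± 6.35 to 3.34 ± 1.19 (-1.73, SE 0.31) and rpl-11.2 from 42.9 ± 6.7 to 21.8 ± 2.6 (-0.94, SE 0.13). rpl-11.2 was the only one of 83 cytoplasmic ribosomal protein genes called, and gas-1 the only one of 43 nuclear genes of the respiratory chain. Neither was called on the deposited scale.

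Genes that act on the X and on sexual fate were called at low levels. dpy-27, the condensin subunit of the dosage compensation complex that acts on hermaphrodite X chromosomes in the soma, rose from 0.603, 0.880, 0.652 and 1.01 to 2.32, 1.95, 2.69 and 2.64 (0.93, SE 0.11, adjusted p = 0.0016). tra-3, a calpain protease gene that promotes female development, fell from 5.47, 7.01, 5.56 and 6.16 to 2.03, 2.15, 2.69 and 2.07 (-1.12, SE 0.11). No groups overlapped in either. sdc-1, which acts in both sex determination and dosage compensation, fell by 0.71 but not on 3 scales. These were 1 rise and 2 falls of 18 genes on the list.

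**Figure D3:**
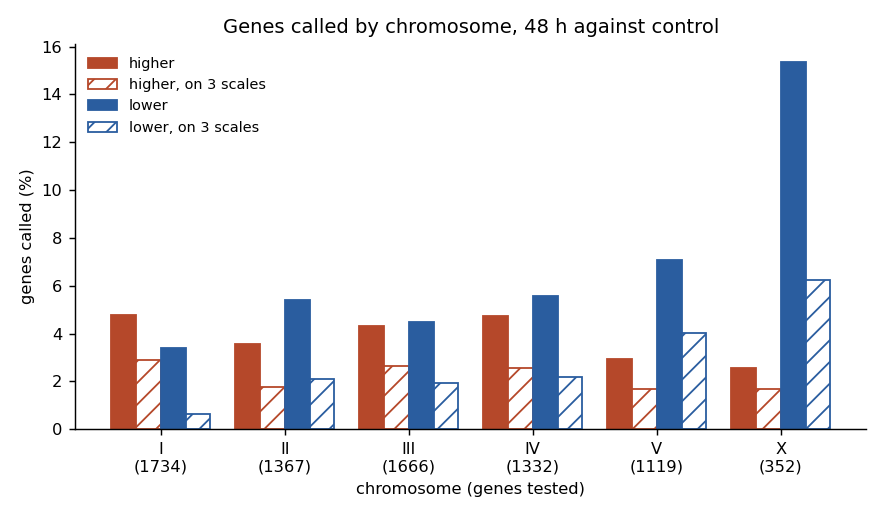
Share of tested genes called (vertical axis, %) on each chromosome (horizontal axis, number tested in brackets); filled bars are calls on rescaled values, hatched bars calls on 3 scales. Falls take 15.3% of X-linked genes and 3.40% to 7.06% of the genes of each autosome, and rises 2.56% to 4.79% on the 6 chromosomes.

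Of 22 stress genes of the endoplasmic reticulum (ER), where secreted proteins fold, 5 rose and none fell. The rises were 22.7% of the list, against 4.08% of all genes, and on 3 scales 13.6% against 2.34%. ire-1, the membrane kinase and RNase that senses unfolded protein in the ER, measured 74.9, 92.0, 80.3 and 94.9 in the controls and 152, 152, 145 and 155 at 48 h (0.82, SE 0.09, adjusted p = 0.0010). enpl-1, the ER HSP90 chaperone gene, went from 160, 212, 170 and 237 to 281, 377, 387 and 412 (0.90, SE 0.16, adjusted p = 0.0088). Neither showed overlap, and 48 h 1 was the lowest of its group for enpl-1 only. dnj-27, an ER DnaJ and thioredoxin-domain protein gene, rose from 8.38 ± 1.45 to 17.5 ± 2.5 (0.98, SE 0.14). These 3 calls held on 3 scales. The BiP gene hsp-4 (0.59) and pdi-1, a protein disulfide isomerase gene (0.35), rose but not on the deposited scale, and both lost the call when any of 6 single libraries was left out.

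sip-1 had the largest rise of the chaperone list. It encodes a small heat shock protein of oocytes and embryos and measured 35.6, 67.2, 53.4 and 64.8 in the controls and 155, 277, 182 and 203 at 48 h (1.87, SE 0.23, adjusted p = 0.0016). Every 48 h library was above every control. In the list of 58 tested heat shock and chaperone genes, which includes enpl-1, dnj-27 and hsp-4, 5 rose and 2 fell.

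Genes of the BTB, MATH and F-box families, many of which encode substrate adaptors of cullin ubiquitin ligases, fell and did not rise on the rescaled values. Of 102 tested (of 505 listed) 17 fell, 12 of them on 3 scales, against 5.46% and 2.21% of all genes. The 12 F-box falls came from 54 fbxa, fbxb and fbxc genes and 5 falls from 47 bath, math and btb genes. The absence of rises depended on the scale, since 8 members were higher on the deposited values, where 4.89% of all genes were. With the 5 libraries that lie together 12 were higher and 22 lower, against 16.3% and 16.8% of all genes. Among the 32 members with a mean below 5 rescaled CPM 12 fell (37.5%), against 11.1% of the other genes in that range, and at 5 or more 5 of 70 fell (7.14%). Leaving out 48 h 3 or 48 h 4 gave 11 falls.

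bath-13 had the largest fall of the family, from 27.8, 22.9, 28.7 and 21.2 in the controls to 5.64, 3.54, 4.40 and 5.62 at 48 h (-2.18, SE 0.15, adjusted p = 0.00018). Its groups were far apart. bath-12, bath-13 and bath-18 are neighbours at 2514977 to 2524475 of chromosome II and all fell on 3 scales, with bath-18 going from 2.601 ± 0.343 to 0.327 ± 0.153 (-1.44, SE 0.11) and bath-12 from 8.36 ± 1.65 to 4.44 ± 0.65 (-0.77, SE 0.14). bath-18 is annotated as a pseudogene, so its fall also counts among those of the pseudogenes below. fbxa-118 (-0.87) and fbxa-194 (-1.13) head a run of 5 neighbouring falls on chromosome V, and fbxa-117 (-1.23) lies in a run of 4. The cullin and SKP1 list had no falls: of 35 genes, prom-1 and zyg-11, a CUL-2 substrate receptor gene (0.48, SE 0.08), rose.

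Signalling genes that rose together include the p38 MAP kinases, which act in immunity and stress. pmk-3, pmk-2 and pmk-1 are neighbours at 8139219 to 8151266 of chromosome IV and all rose on 3 scales. pmk-3 measured 5.05, 3.64, 3.45 and 3.54 in the controls and 6.04, 6.52, 8.13 and 7.19 at 48 h (0.70, SE 0.13). pmk-2 rose from 1.01 ± 0.22 to 2.35 ± 0.42 (0.74, SE 0.12) and pmk-1 from 0.870 ± 0.131 to 1.83 ± 0.14 (0.60, SE 0.09), with no overlap in any of the 3. The immune and infection list of 25 tested genes, which holds them, had 5 rises and 4 falls. These were 20% and 16%, against 4.08% and 5.46% of all genes, and 3 of the 5 rises are the neighbouring pmk genes. Its C-type lectin genes went both ways, with clec-104 higher (0.92) and clec-169 (-1.37) and clec-126 (-0.85) lower, and pals-18, of a family known from the response to intracellular pathogens, fell from 4.26 ± 0.56 to 1.65 ± 0.26 (-0.99, SE 0.11).

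In the Wnt and TGF-beta list 4 of 23 genes rose (17.4%, against 4.08% of all genes) and 1 fell. The 4 rises were all TGF-beta genes, a split made after the values were seen. The R-Smad gene daf-8 measured 1.34, 1.38, 0.959 and 1.07 and then 3.08, 2.88, 3.58 and 4.15 (1.01, SE 0.12, adjusted p = 0.0013), and the co-Smad gene sma-4 rose by 0.53, both on 3 scales. The receptor genes daf-1 (0.63) and daf-4 (0.37) rose, but not on 3 scales. The Wnt ligand gene cwn-1 fell from 2.55, 2.201, 2.76 and 1.93 to 0.523, 0.530, 0.355 and 0.401 (-1.21, SE 0.10, adjusted p = 0.00034). daf-8 and cwn-1 showed no overlap between groups, and the list had 1 to 3 rises when a library was left out, with 1 without control 1, control 3, 48 h 3 or 48 h 4.

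Nuclear hormone receptors, ligand-regulated transcription factors, were called in both directions, with 6 of 27 higher and 6 lower, of which 5 and 4 on 3 scales. Rises and falls were each 22.2% of the list, against 4.08% and 5.46% of all genes. nhr-47 rose from 3.52, 3.76, 2.88 and 3.03 to 8.89, 8.44, 11.4 and 11 (1.34, SE 0.12, adjusted p = 0.00043), and nhr-10 from 0.604 ± 0.087 to 3.15 ± 0.69 (1.36, SE 0.12). nhr-145 fell from 5.24, 3.46, 6.18 and 5.78 to 1.28, 0.596, 0.857 and 0.769 (-1.71, SE 0.17, adjusted p = 0.00062). nhr-145 and nhr-95 (-1.30) are neighbours in a run of 3 falls on chromosome V. The groups of all 4 genes were separate. Without 48 h 2, 48 h 3 or 48 h 4 the list had 2 rises.

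Metabolic genes showed isolated changes. In the TCA cycle list 2 of 29 genes rose (6.90%, against 4.08% of all genes) and 1, suca-1, fell. The cytosolic isocitrate dehydrogenase gene idh-1 went from 50.8, 49.1, 49.3 and 54.7 to 74.0, 75.0, 70.7 and 72.9 (0.51, SE 0.07, adjusted p = 0.0027), and idhg-2, of the NAD-dependent enzyme, from 0.406 ± 0.310 to 1.64 ± 0.41 (0.92, SE 0.17). All 3 calls held on 3 scales. Of 64 lipid and one-carbon genes 2 rose and 4 fell, among them the fatty acid synthase gene fasn-1 (0.83, SE 0.21) and the desaturase gene fat-2, which fell from 5.01 ± 0.81 to 2.74 ± 0.26 (-0.68, SE 0.12). The lactate dehydrogenase gene ldh-1 fell by 0.57 as 1 of 2 falls among 28 glycolysis and sugar genes. Neither fasn-1 nor ldh-1 was called on the deposited scale, and the lipid list had no rises without control 3, 48 h 2, 48 h 3 or 48 h 4. The call of fasn-1 was also ended by leaving out control 1.

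Genes of the oocyte surface had 3 of 17 members higher (17.6%, against 4.08% of all genes) and none lower. cpg-1, an eggshell chondroitin proteoglycan gene, measured 52.7, 94.8, 55.5 and 85.6 in the controls and 84.4, 180, 167 and 200 at 48 h (1.09, SE 0.29, adjusted p = 0.049), and its groups overlapped at 48 h 1. perm-2, of the eggshell permeability barrier, was alike (0.57, SE 0.15, overlap at 48 h 1). egg-3, a regulator of the egg-to-embryo transition, rose from 30.6 ± 2.2 to 39.2 ± 0.9 (0.35, SE 0.08) on 3 scales. No member kept its call without control 3, control 4, 48 h 2, 48 h 3 or 48 h 4. None of 27 maternal regulator genes was called by limma (7 at an unadjusted p under 0.05, 1 by edgeR and 2 by DESeq2), and 1 of 13 tested sperm genes, spe-5, fell (-0.75, SE 0.08).

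Markers of somatic cells, which a dissected gonad can bring along, varied in level, and few were called. Of 12 muscle markers mup-2 rose (0.46), all 12 had a positive difference, and the summed list was at 55.4 to 92.7 deposited CPM in controls and 75.0 to 147 at 48 h. The call of mup-2 was ended by leaving out any single library other than control 1, and edgeR called no muscle marker. With the 5 libraries that lie together 11 of the 12 passed as higher, against 16.3% of all genes. Of 8 sheath and somatic gonad markers 1, lin-3, rose, with list sums of 141 to 279 and 196 to 324. None of 5 intestine markers was called by limma, edgeR or DESeq2, and none had an unadjusted p under 0.05. Of 7 neuron markers 2 fell (28.6%, against 5.46% of all genes). The intestinal factor gene elt-2 was at 0 in 4 libraries, and the epidermal dpy-7 in 7. The muscle marker unc-54 was present in every library, at 24.8 to 55.6 deposited CPM, and myo-3 was at 2.32 to 7.17. Of 37 epidermis markers 2 rose and 2 fell. The part of these markers in the results was not tested.

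Large housekeeping groups contributed few calls. Of 83 cytoplasmic and 66 mitochondrial ribosomal protein genes 3 fell and none rose. limma called none of 33 proteasome, 27 germ granule, 12 mitochondrially encoded and 10 tubulin genes, of which 1, 2, 1 and 1 had an unadjusted p under 0.05, and edgeR and DESeq2 called none of them. It called none of 51 nuclear pore and transport genes and 15 Argonaute genes either (6 and 5 at an unadjusted p under 0.05); edgeR called none of these and DESeq2 called 3 of each. Of 72 splicing genes 1 rose and 1, snrp-40.1, fell. More passed with the 5 libraries that lie together, where 16.3% of all genes passed as higher and 16.8% as lower. There 14 of the 51 nuclear pore and transport genes were lower and 2 higher. Of the 66 mitochondrial ribosomal protein genes 14 were lower and 1 higher, and of the 72 splicing genes 6 were lower and 13 higher. Mitochondrially encoded genes had a list median of -0.49, which was -0.22 as deposited, -0.36 with the length trend removed, -0.10 with the ribosomal share as covariate and -0.19 in the 5 libraries that lie together, where 6 of the 12 were called lower. Small nucleolar RNAs had one of -0.48 over 131 genes with 5 falls, which was -0.10 once the length trend was removed and -0.14 in the 5 libraries that lie together. Pseudogenes fell in 25 of 194 cases (12.9%, against 5.46% of all genes) and rose in 5. Of pseudogenes with a mean below 5 rescaled CPM 16.7% fell, against 11.5% of all genes in that range.

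**Figure D4:**
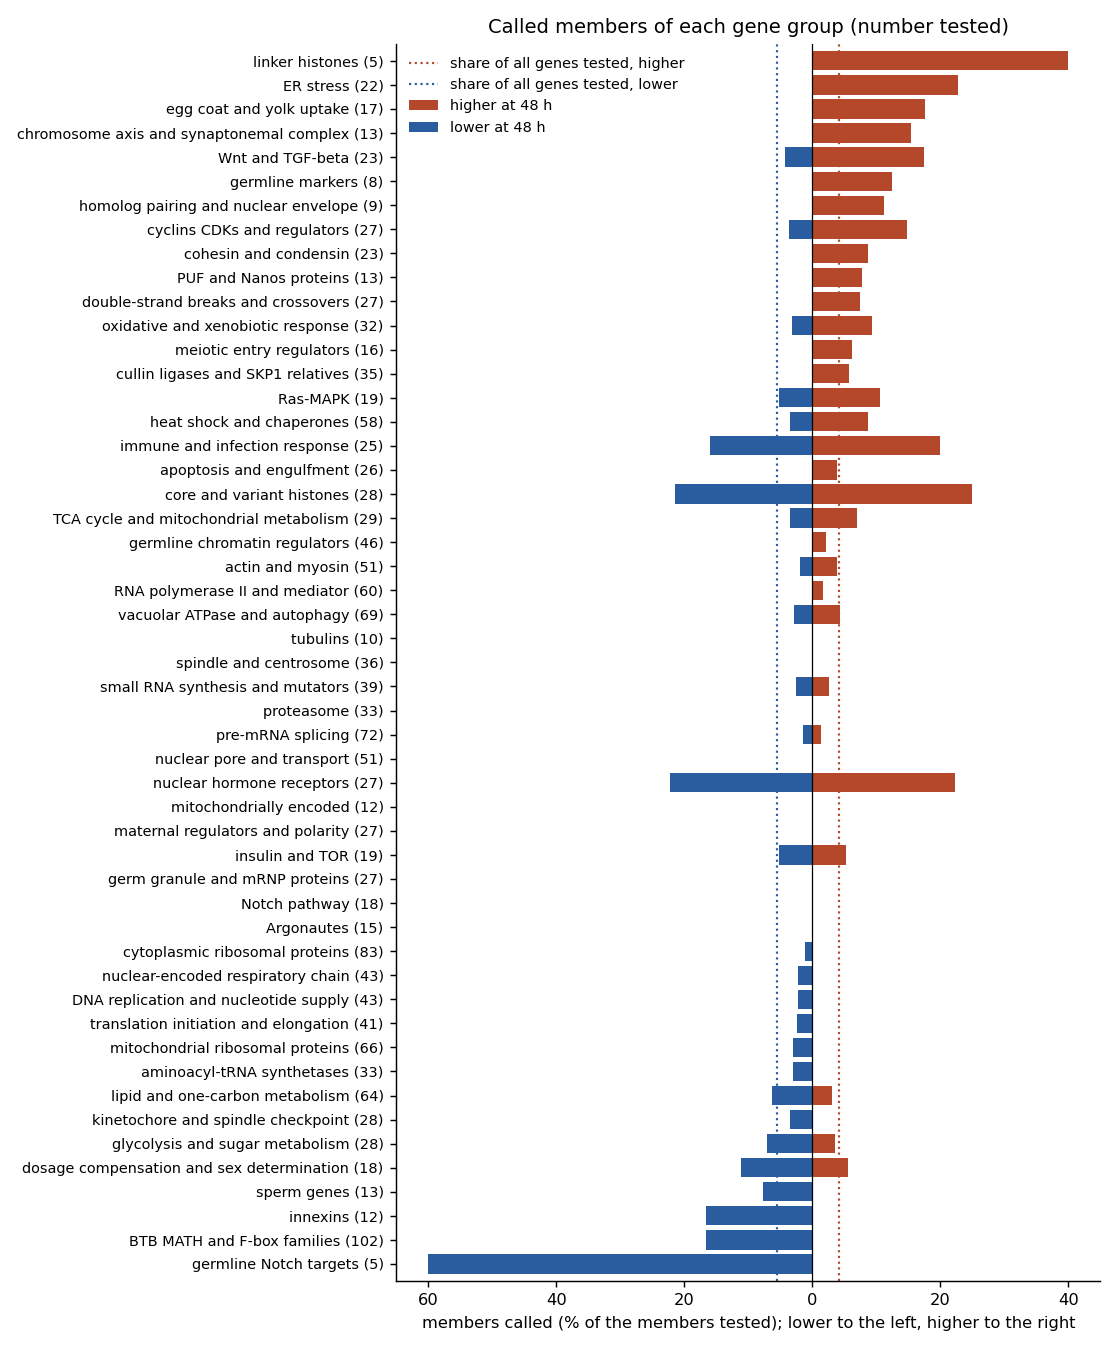
Share of tested members called in each gene group with at least 5 members tested, markers of other cell types left out (number in brackets; horizontal axis, % of members, higher to the right and lower to the left). Dotted lines mark the share of all genes tested, 4.08% higher and 5.46% lower; linker histones reach farthest to the right, ER stress genes have rises only, germline Notch targets reach farthest to the left, the BTB, MATH and F-box families have falls only, and core histones and nuclear hormone receptors have more than 20% of members on each side.

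The remaining genes among the 12 largest rises and 12 largest falls have varied or unstated roles. Among rises, cdh-4, a Fat-like cadherin gene, measured 3.57, 6.95, 3.99 and 6.29 in the controls and 13.3, 20.2, 24 and 23.6 at 48 h (1.78, SE 0.23). gei-8, a nuclear corepressor gene and the only call among 46 germline chromatin regulators, went from 2.99 ± 1.24 to 10.7 ± 1.8 (1.59, SE 0.22). avr-14, a glutamate-gated chloride channel gene, and nca-2, a sodium leak channel gene, rose by 1.19 and 1.13. The unnamed genes F10G7.5 (1.31) and C39F7.5 (1.29) complete the 12 largest rises.

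Among falls, F40D4.13 varied little within groups, at 30.3, 30.3, 27.3 and 29.3 in the controls and 7.61, 6.29, 6.41 and 7.32 at 48 h (-1.94, SE 0.09, adjusted p = 4e-05). Y69H2.10 went from 5.45 ± 1.62 to 0.312 ± 0.102 (-2.26, SE 0.18) and C38D9.2 from 9.38 ± 1.33 to 1.66 ± 0.30 (-1.96, SE 0.13). F52D4.1, annotated as a non-coding RNA gene, measured 190, 96.9, 200 and 96.3 and then 56.5, 29.8, 24 and 28.9 (-2.03, SE 0.33). In it and in Y73B3A.23 (-1.51), annotated likewise, control 1 and control 3 were the highest controls, the same libraries that stand apart. Both genes fell in the other 5 libraries too (-1.77 and -1.17). H40L08.1 (-1.45) completes the 12 largest falls. No groups overlapped in these 12 rises and 12 falls, as the rule for naming them required.

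Called genes lay beside each other in places. Of 7579 pairs of neighbouring tested genes, 22 were both higher and 67 both lower, and 16 runs of 3 or more neighbours called in 1 direction were found. Of all genes tested 4.08% rose and 5.46% fell. The number of pairs or runs that these shares alone would give was not computed, so the counts do not by themselves show an excess. Runs of rises held the chromosome V histone cluster, the p38 genes and atgp-1, gln-5 and lhfp-4 on chromosome IV. The other 13 runs were falls, 3 of them on the X. Of the 725 called genes 254 overlap a gene on the opposite strand, and the sources used here give no strand setting, so reads of overlapping genes cannot be told apart.

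The 2 h libraries in the same table (2 h 1 and 2) give the level of these genes early in the time course, on the same scale; they share the controls with the comparison above. lst-1 was already at 16 and 16.7, and sygl-1 at 1.26 and 2.36, close to their 48 h levels. prom-1 was at 36.8 and 32.1, between the control and 48 h values, and ire-1 at 114.8 and 117.9 likewise. htp-3 (182 and 175), cki-2 (16.9 and 16) and him-6 (133 and 142) lay within or next to their 48 h range.

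Other genes were near the controls at 2 h. his-32 measured 5.41 and 5.24, his-3 0.953 and 0.679, and sip-1 64.8 and 55.5. bath-13 was at 25.5 and 20.2, suca-1 at 50.1 and 68.3, and cwn-1 at 2.25 and 1.98. enpl-1 (228 and 223), nhr-145 (4.98 and 5.81) and cdh-4 (5.20 and 6.43) also lay within or beside the control range. hil-2 was split, at 118 in one 2 h library and 81.1 in the other, against 61.4 to 77.9 in controls and 150 to 220 at 48 h. These are values of 2 libraries and were not tested here.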

How the data were processed

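Total RNA of dissected germline tumors was extracted with Trizol, depleted of ribosomal RNA and sequenced, per the labels' protocols. The authors deposited a signal per gene, which the labels' description of the table calls CPM; per the submitters' processing notes the tools were STAR 2.0.4b, featureCounts 1.4.5 of Subread, limma and edgeR. Genome build, annotation and strand setting: not given in the sources used here. One line was kept per gene ID, since repeated lines held the same values. Every value was a whole multiple of 1 read (100%, tolerance 0.1 read), which gave whole reads per library. A count of 0 allows up to 3 reads, 0.0917 to 0.169 CPM, and this floor covers counting error alone: without molecular identifiers, PCR copies count as separate reads.

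Groups came from the sample titles. The main test was limma 3.58.1 (R 4.3.3; lmFit, eBayes with trend, 2-sided, Benjamini-Hochberg over 7604 genes, threshold 0.05) on log2(CPM divided by TMM factors + 1). TMM factors came from edgeR 4.0.16. The same test was run with the deposited CPM unscaled and with each library's trend with exon length removed (7586 genes with a length in Ensembl release 115, WBcel235, matched by gene ID for 46363 of 46536). Alternatives included other scalings, pseudocounts and filters, libraries left out, a replicate block, array weights, edgeR on recovered reads, which called 311 higher and 414 lower, and DESeq2 1.42.0. The scripts were tested on simulated data. No 2 libraries of a group agreed within sampling noise (lowest chi-square per degree of freedom 10.1). The labels do not say how replicates were collected, so the spread that p-values rest on may be technical.

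Genes named are the Notch targets lst-1 and sygl-1, the pathway genes glp-1 and lag-1 and the meiotic regulators gld-2 and gld-1; the 12 largest rises and 12 largest falls among genes called on 3 scales with groups that do not overlap and a mean of 5 rescaled CPM or more in the higher group; and up to 3 called members of each list in each direction with the largest difference. Members named beyond that rule (fbf-2, utx-1, his-1, his-2, his-4, his-16, his-59, his-62, his-69, cyh-1, hsp-4, pdi-1, pmk-1, daf-4, bath-12, fbxa-118, fbxa-194, atgp-1, gln-5, lhfp-4) and the somatic and sperm markers given by level were picked with their values known. The comparison, the 57 gene lists and the tests were chosen with earlier results of these data known. The 2 h values were put on the 8-library scale by the mean ratio of the TMM factors of 8 and 10 libraries. The second deposited table was not used here.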

Additional observations from a re-analysis of the deposited data

Results flagged for a closer look

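In 196 groups of 4 libraries checked (the named genes and 3 library measures), the farthest library's gap to its nearest neighbour, divided by the range of its group, passed the 95% limit of Dixon's test in 9; chance flags about 1 in 20 groups. In the controls, control 2 was far above the others for sygl-1 (0.8728), control 1 far above for pmk-3 (0.8834) and far below for dsb-1 (0.8585), and control 4 far below for egg-3 (0.8957). At 48 h, library 1 was far above the others for bath-12 (0.9114) and far below for gld-2 (0.8450) and perm-2 (0.8292), library 3 far above for hil-3 (0.8617) and library 4 far above for pals-18 (0.9079). Without control 2, sygl-1 still fell (-2.11) and without control 1 pmk-3 still rose (0.81).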

How the results depend on the processing

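The 725 calls kept their sign in all 24 other settings for 724 genes, but how many genes passed depended on the processing; the causes were not tested. Calls numbered 1264 with the length trend removed, 2233 with the ribosomal share as covariate, 2278 with array weights, 2516 without control 1, control 3 and 48 h 1, 1118 by DESeq2 and 373 with a filter of 5 CPM. Rises under these numbered 576, 1012, 1132, 1237, 493 and 188, and falls 688, 1221, 1146, 1279, 625 and 185. Scaled to the reads outside ribosomal RNA there were 497 rises, and on the deposited values 173 falls. Calls on 3 scales were 83 higher and 44 lower with the 5 CPM filter, and 1209 and 820 without the 3 libraries. Leaving out 1 library gave 361 to 858 calls, 121 to 403 rises, 237 to 455 falls, and on 3 scales 55 to 157 rises and 66 to 172 falls. A replicate block gave 1441 calls (680 and 761) and 648 higher and 285 lower on 3 scales. The replicate numbers were not taken as pairs, because the third same-numbered pair did not deviate together (correlations 0.82, 0.67, -0.59 and 0.84) and other pairs did as strongly, such as control 3 with 48 h 1 (0.80) and control 2 with 48 h 4 (0.82).

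Among named genes 5 uncalled ones turned sign. fbf-2 was 0.15 as deposited. lag-1 was 0.24 as deposited, 0.061 scaled to reads outside ribosomal RNA, and -0.13 to 0.10 with 1 library left out. glp-1 was -0.069 with the covariate, -0.056 without the 3 libraries and -0.0042 with array weights. gld-1 was 0.24 as deposited, 0.062 outside ribosomal RNA, and -0.11 to 0.0598 with 1 library left out. gld-2 was -0.016 with the length trend removed and -0.098 with the covariate. All 89 named genes that were called kept their sign in every setting run. Depth limits the low genes, where 3 reads are 0.0917 to 0.169 CPM.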
